A study of Homo sapiens with 10 samples.

Results

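SEZ6L2 and 9 genes that lie beside it on human chromosome 16p11.2 were followed across 10 RNA sequencing libraries. The 10 genes, SEZ6L2, ASPHD1, CDIPT, KCTD13, MVP, MAZ, TMEM219, TAOK2, PPP4C and MAPK3, were taken by symbol from a table of 46427 genes. SEZ6L2 was chosen in part by its level in these same libraries, where the study had found it high in drug-resistant and in spheroid cells. The study also used cisplatin-resistant A549 cells, which are not among these libraries, and expression in lung adenocarcinoma tumours. It measured SEZ6L2 protein by flow cytometry as well, and protein is not examined here. The differences of SEZ6L2 in the drug-resistant and spheroid comparisons are therefore given as a description, with no test. The question asked of the neighbours was whether SEZ6L2 changed alone or together with its locus. The neighbours were listed with earlier results of these libraries known, so each count over them is set beside the count over every gene of the stretch and over all genes tested.

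All libraries came from established human lung cancer cell lines, H460 (a large cell carcinoma line) and A549 (an adenocarcinoma line), and held Poly(A) RNA. Parental H460 cells in 2D culture gave 3 libraries. Drug-resistant H460 cells were those that survived a drug, and they comprised 1 library after 4 µM cisplatin (CR), 2 after 5 nM paclitaxel (PR) and 1 after 0.5 µM doxorubicin (DR), each with 3 days of drug and 3 days of recovery. Cells kept as spheroids (TS), which the sample labels call CTC, gave 1 library of H460 and 1 of A549, and A549 cells in 2D culture gave 1. By the study's methods, TS cells were passaged on coated plates in a medium with basic fibroblast and epidermal growth factors and no listed serum. The 2D cells grew in medium with fetal bovine serum. Effects of medium and of spheroid growth therefore cannot be told apart in the TS comparisons. The parental and A549 2D cells received no drug, and neither did the TS cells. The labels do not say whether libraries of a group came from separate cultures, so the p-values below measure the spread between these libraries, which may be technical. Survivors of a short exposure are not a line selected over many passages, and in bulk RNA fewer cells of a type and less RNA per cell cannot be told apart.

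Between 59499787 and 89541774 reads were counted on genes per library, and SEZ6L2 itself had between 585 and 8400. Parental replicate 3 stood furthest from the other parental libraries, with a median absolute log2 difference across genes of 0.291 and 0.326 against 0.239 between replicates 1 and 2. Genes with at least 1 read numbered between 21036 and 22762 in 7 libraries and between 25781 and 26745 in both PR libraries and the DR library. The library names have 2 forms, and values within each form are given beside the pooled ones. Parental replicates 1 and 3 share a form with PR replicate 1, whereas CR, DR, PR replicate 2 and parental replicate 2 share the other. Of the epithelial markers, the keratins KRT8 and KRT18 were high in each library, at FPKM of 190.4 or more. EPCAM was at or under 0.114 FPKM and CDH1 at or under 0.0266 in the 8 H460 libraries, while CDH1 was at 9.29 and 11.9 in the A549 libraries. Of the 4 leukocyte markers, PTPRC, CD3E and MS4A1 did not exceed 0.157 FPKM in any library, whereas CD68 was between 15.0 and 69.8. The 3 endothelial markers together did not exceed 0.182.

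Chromosome band 16p11.2 is a gene-dense interval whose recurrent deletion and duplication are known from neurodevelopmental disorders. Its genes do not form one pathway. SEZ6L2 encodes a transmembrane protein of the SEZ6 family, found mainly on neurons, with sushi and CUB domains outside the cell. The other genes encode, among others, a lipid enzyme, a ubiquitin ligase adaptor, the main protein of the vault particle, kinases, a phosphatase and a zinc finger factor.

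SEZ6L2 lies at chr16:29871159-29899550 on the minus strand (GRCh38, positions from RefSeq). ASPHD1 lies head to head with it at chr16:29900363-29919864 on the plus strand, with 812 bases between them. ASPHD1 and KCTD13, at chr16:29906339-29926226 on the minus strand, overlap by 13526 bases on opposite strands. This overlap is of whole gene spans, introns included, and how much of it is exon was not examined. The sources used here do not state that strand was kept, so reads in that overlap may have been counted for either gene of the pair. On the other side CDIPT (chr16:29858357-29863226, minus strand) ends 7932 bases from SEZ6L2. MVP (chr16:29820394-29848039, plus strand) lies beyond it and shares 2096 bases with PAGR1, and MAZ (chr16:29806124-29811164, plus strand) comes next. The members with higher coordinates than KCTD13 are TMEM219, TAOK2, PPP4C and MAPK3. The stretch was taken from SPN to CORO1A, chr16:29662963-30189076, a length of 526.1 kb. RefSeq lists 38 genes in it, of which 34 were in the table and 20 reached an FPKM of 1 in 2 or more libraries. FPKM is a read count scaled to transcript length and library size, a level that can be compared between genes. The other 14 genes were at 1.02 FPKM or less in each library, and 4 of them had no read.

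SEZ6L2 was low in parental H460 cells and was higher in each drug-resistant, TS and A549 library. Its level was 3.21, 2.101 and 4.54 FPKM in parental replicates 1, 2 and 3, a mean of 3.29 ± 1.22 (SD, n = 3). CR cells had 20.3, PR cells 26.9 and 31.3 and DR cells 18.2, a mean of 24.2 ± 6.05 (SD, n = 4). In order, the levels ran from parental cells through A549 2D (7.34) and H460 TS (7.83) to DR, A549 TS (18.3), CR and PR. The 4 drug-resistant libraries did not overlap the 3 parental ones. A549 2D and H460 TS, adjacent in that order, and likewise DR and A549 TS, differed by less than the SD of the parental libraries. On the log2 scale of the count model (edgeR), drug-resistant cells were 2.72 higher than parental cells, a 6.61-fold difference, and PR cells alone 2.88 higher. TS libraries of both lines were 1.30 higher than 2D libraries with the cell line as a covariate. Within the 2 forms of library name, drug-resistant cells were 2.53 and 2.93 higher on the log2(FPKM + 1) scale, against 2.56 pooled.

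Between the cell lines, A549 libraries were 1.15 ± 0.36 (SE) higher on the log2 scale than H460 2D and TS libraries. This did not pass the threshold of 0.05 (edgeR's quasi-likelihood test, adjusted p = 0.0567). The study did not choose SEZ6L2 by this contrast. The contrast uses the same parental and TS libraries, however, and SEZ6L2 was chosen for low parental values, so its p-values are not independent of the choice. The adjusted p lay between 0.0232 and 0.225 over the 12 alternatives and was under 0.05 in 4, which were DESeq2, both limma fits and the fit without parental replicate 3 (edgeR adjusted p = 0.0277).

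The other SEZ6 family genes, SEZ6 and SEZ6L, were near 0. SEZ6 had at most 0.0823 FPKM (24 reads, in PR replicate 2) and no read in the parental libraries. SEZ6L had 9 reads in the DR library and none in the others.

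**Figure D1:**
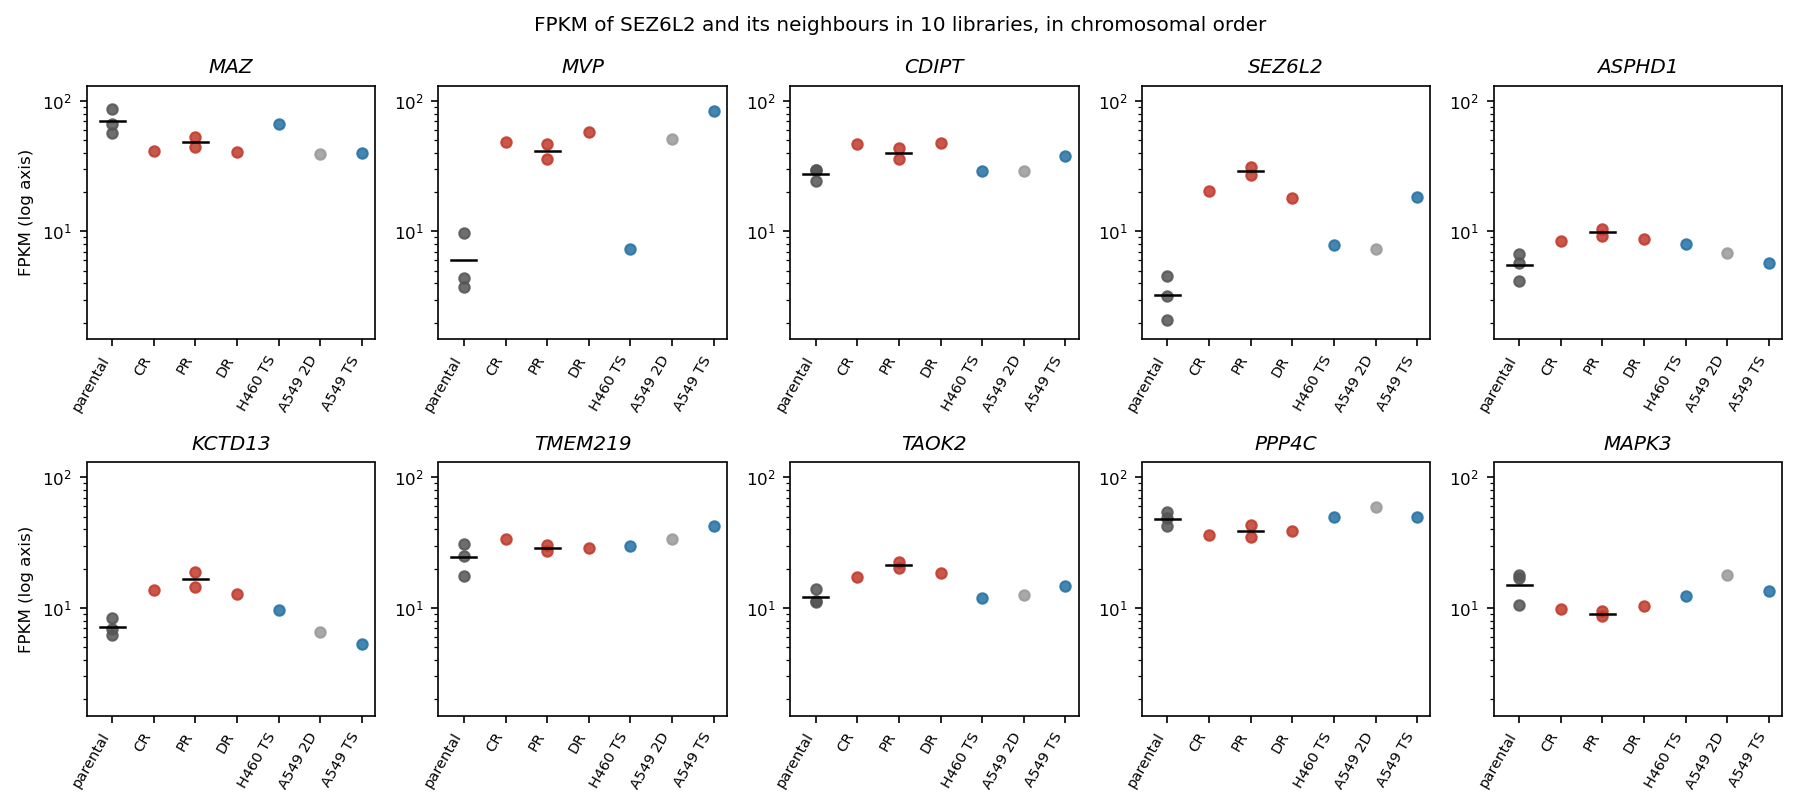
FPKM (vertical log axis, the same in each panel) of the 10 genes, in chromosomal order, in each library (points) of 7 groups, with a bar at the mean where a group has more than 1 library. SEZ6L2 is lower in each parental library than in any other library, and MVP is lower in each parental library than in each drug-resistant or A549 library. ASPHD1, CDIPT, KCTD13 and TAOK2 are also lower in each parental library than in each drug-resistant one, while MAZ and MAPK3 are lower in each drug-resistant library than in each parental one.

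Of the 9 neighbours, 5 rose and 2 fell in the 4 drug-resistant libraries against the 3 parental ones, and 2 did not pass the test (edgeR's quasi-likelihood test on counts, Benjamini-Hochberg adjustment over the 18398 genes tested). ASPHD1, CDIPT, KCTD13, MVP and TAOK2 rose, and MAZ and MAPK3 fell. Of all genes tested, 18.5% were called higher and 15.3% lower, 33.8% in all. MVP rose about as much as SEZ6L2 and the other 4 by less than 2-fold. The median log2 fold change of the 9 neighbours was 0.54, against 0.06 over all genes. The count called higher ranged from 2 to 5 over the 14 alternatives. It was 2 without the CR library, the DR library, PR replicate 2 or parental replicate 3, and without the filter on low counts. KCTD13 and MVP were called in each alternative. In PR cells alone, KCTD13 and MVP rose and MAPK3 fell, where 28.1% of 19430 genes were called.

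MVP, the major vault protein, forms most of the vault, a large ribonucleoprotein particle, and is also known as lung resistance-related protein. Its level was 3.74, 4.43 and 9.81 FPKM in parental cells, 48.4 in CR, 36.1 and 46.5 in PR and 57.8 in DR cells. Each drug-resistant library was above each parental library. The log2 fold change was 2.85 ± 0.38 (SE), or 7.19-fold, with an edgeR adjusted p = 0.000589, and in PR cells alone 2.52 ± 0.42 (edgeR adjusted p = 0.00422). Within the forms of library name the difference was 2.37 and 3.25, against 2.87 pooled, in log2(FPKM + 1). Parental replicate 3 had the highest MVP and the highest SEZ6L2 of the parental libraries.

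KCTD13 is a substrate adaptor of the CUL3 ubiquitin ligase that acts on RHOA. It was at 6.86, 6.24 and 8.32 FPKM in parental cells, 13.8 in CR, 14.5 and 18.8 in PR and 12.8 in DR cells. The groups did not overlap, and the PR libraries were highest, as for SEZ6L2. On the log2 scale the change was 0.93 ± 0.19 (SE; edgeR adjusted p = 0.00437), and in PR cells 0.98 ± 0.25 (edgeR adjusted p = 0.0185). Within the forms of library name the difference was 0.86 and 1.14 in log2(FPKM + 1), against 0.97 pooled. The PR call was lost without PR replicate 1 (edgeR adjusted p = 0.074), PR replicate 2 (0.196) or parental replicate 2 (0.0691).

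ASPHD1, a protein with an aspartate beta-hydroxylase domain, starts closest to SEZ6L2. It was at 5.76, 6.72 and 4.14 FPKM in parental cells, 8.45 in CR, 9.20 and 10.5 in PR and 8.80 in DR cells. The groups did not overlap, but the rise was far smaller than that of SEZ6L2, with a log2 fold change of 0.62 ± 0.19 (SE; edgeR adjusted p = 0.0272). In the parental libraries the order of ASPHD1 was the opposite of that of SEZ6L2, with replicate 3 lowest. Values within the forms of library name were 0.79 and 0.40 in log2(FPKM + 1), against 0.66 pooled, and with the form as a covariate the edgeR adjusted p was 0.0695. The call was also lost without the CR (0.0568) or DR (0.0569) library, PR replicate 2 (0.0664), parental replicate 1 (0.0601) or parental replicate 3 (0.0673).

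CDIPT is the phosphatidylinositol synthase, which makes the precursor of the phosphoinositides. It was at 29.4, 29.4 and 24.4 FPKM in parental cells, 46.7 in CR, 35.8 and 43.7 in PR and 47.4 in DR cells. The PR libraries were the lowest of the drug-resistant ones, unlike SEZ6L2. The log2 fold change was 0.54 ± 0.19 (SE) with an edgeR adjusted p = 0.0476. The call was lost in 8 of 14 alternatives, among them the fits without the CR library (0.128), the DR library (0.12), PR replicate 2 (0.0692) and each parental library in turn (0.0847, 0.115 and 0.108 for replicates 1, 2 and 3). With the form of library name as a covariate, the edgeR adjusted p was 0.16, and the differences within forms were 0.40 and 0.62 in log2(FPKM + 1), against 0.62 pooled.

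TAOK2 is a kinase that acts upstream of p38 MAP kinases and on the cytoskeleton (chr16:29973868-29992261, plus strand). It was at 14.0, 11.1 and 11.4 FPKM in parental cells, 17.2 in CR, 20.3 and 22.5 in PR and 18.6 in DR cells. The groups did not overlap, and the PR libraries were highest. On the log2 scale the change was 0.57 ± 0.18 (SE; edgeR adjusted p = 0.0296). Without the CR library the edgeR adjusted p was 0.0546, without DR 0.0612, without PR replicate 2 0.071, and without parental replicates 2 and 3 0.107 and 0.0673. Within the forms of library name TAOK2 was 0.65 and 0.75 higher in log2(FPKM + 1), against 0.65 pooled.

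MAZ, a zinc finger transcription factor that binds runs of G, fell. It was at 86.9, 56.8 and 66.4 FPKM in parental cells, 41.0 in CR, 52.9 and 43.9 in PR and 40.3 in DR cells. The groups did not overlap. The log2 fold change was -0.78 ± 0.20 (SE; edgeR adjusted p = 0.0143), and without parental replicate 1, the highest library, the edgeR adjusted p was 0.0511. Within the forms of library name MAZ differed by -0.51 and -0.44 in log2(FPKM + 1), against -0.63 pooled. MAPK3, the MAP kinase ERK1 (chr16:30114105-30123220, minus strand), also fell. It was at 10.6, 17.8 and 16.9 FPKM in parental cells, 9.88 in CR, 8.62 and 9.49 in PR and 10.4 in DR cells. The highest drug-resistant library lay just under the lowest parental one. On the log2 scale the change was -0.76 ± 0.22 (SE; edgeR adjusted p = 0.0221). The edgeR adjusted p was 0.0534 without PR replicate 1, 0.0615 without PR replicate 2, 0.0821 without parental replicate 2 and 0.0532 without parental replicate 3, and it was 0.0644 with upper-quartile scaling. Within the forms of library name MAPK3 differed by -0.58 and -0.79 in log2(FPKM + 1), against -0.57 pooled. In PR cells alone the log2 fold change was -0.97 ± 0.29 (SE; edgeR adjusted p = 0.0359), and this call was kept in 5 of 13 alternatives. It was lost with upper-quartile scaling (0.0958), with limma (0.109 and 0.116 with pseudocounts of 1 and 0.1) and without PR replicate 1 (0.185), PR replicate 2 (0.214), parental replicate 2 (0.107) or parental replicate 3 (0.0584).

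PPP4C and TMEM219 did not pass the test. PPP4C, the catalytic subunit of protein phosphatase 4, was at 48.5, 54.1 and 42.1 FPKM in parental cells, 36.4 in CR, 35.2 and 42.8 in PR and 38.5 in DR cells. The log2 fold change was -0.44 ± 0.16 (SE; edgeR adjusted p = 0.0531), and PPP4C was called lower without parental replicate 3 (edgeR adjusted p = 0.0297) and with the form of library name as a covariate (0.043). Within the forms PPP4C differed by -0.35 and -0.46 in log2(FPKM + 1), against -0.32 pooled. TMEM219, a membrane receptor for IGFBP3, ranged from 17.4 to 30.7 FPKM in parental cells and from 27.4 to 33.9 in drug-resistant cells. The groups overlapped, and its log2 fold change was 0.30 ± 0.23 (SE; edgeR adjusted p = 0.341). Within the forms of library name it was 0.37 and 0.01 higher in log2(FPKM + 1), against 0.32 pooled.

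Over the whole stretch, genes rose and fell side by side. Of the 33 genes other than SEZ6L2, 25 passed the filter on low counts in the drug-resistant comparison, 7 were called higher, 6 were called lower and 12 were not called. Of all genes tested, 18.5% were called higher and 15.3% lower. The median log2 fold change of the 25 was -0.01, and it was 0.37 over the 26 genes tested without parental replicate 3. The count called higher was 3 without the DR library or PR replicate 2, 4 without the CR library or parental replicate 1 or 2, and 4 with the form of library name as a covariate. Besides the members, YPEL3 and the low noncoding gene LOC101928595 were called higher, and KIF22, HIRIP3, LOC112694756 and CORO1A were called lower. The call of LOC101928595 was kept without the CR library or parental replicate 3 and lost without any of the other 5 libraries. YPEL3, a yippee-like gene linked to growth arrest, was at 0.132, 0.979 and 1.69 FPKM in parental cells, 4.92 in CR, 5.16 and 6.26 in PR and 3.92 in DR cells (log2 fold change 2.56 ± 0.57 SE, edgeR adjusted p = 0.00702). KIF22, a kinesin that moves chromosomes in mitosis, was at 43.6, 51.3 and 32.3 FPKM in parental cells and between 9.65 and 13.0 in drug-resistant cells (log2 fold change -2.03 ± 0.20 SE, edgeR adjusted p = 0.000196). HIRIP3, which encodes a partner of the histone chaperone HIRA, had a log2 fold change of -1.55 ± 0.18 (SE; edgeR adjusted p = 0.000339). CORO1A, an actin-binding coronin, was between 0.968 and 1.51 FPKM in parental cells and at or under 0.257 in drug-resistant cells. LOC112694756 overlaps ALDOA, so its reads may be shared, and its log2 fold change of -1.80 is uncertain. ALDOA, the glycolytic aldolase and by far the most abundant gene of the stretch, was between 924.2 and 1140 FPKM in parental and between 1003 and 1209 in drug-resistant cells.

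With SEZ6L2 left out, since it was chosen for being high here, 12 of the 19 expressed genes did not overlap between the 4 drug-resistant and 3 parental libraries. Above were 6, MVP, CDIPT, ASPHD1, KCTD13, TAOK2 and YPEL3, and 6 were below. Among all 13439 such genes, 21.8% were above and 16.8% below. The order of the genes and their changes are shown in the plot of fold change against distance. Within 0.3 Mb of the SEZ6L2 start, with SEZ6L2 left out, 26.7% of 30 tested genes were called higher and 23.3% lower in drug-resistant cells. In the 0.3 to 1 Mb on either side of that start, 11.1% of 45 tested genes were called higher and 6.67% lower. In the 1 to 5 Mb beyond, 29.5% of 61 were called higher and 14.8% lower. Over 5 Mb away on chromosome 16 the shares were 18% and 15.5% of 676, against 18.5% and 15.3% of all genes tested.

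**Figure D2:**
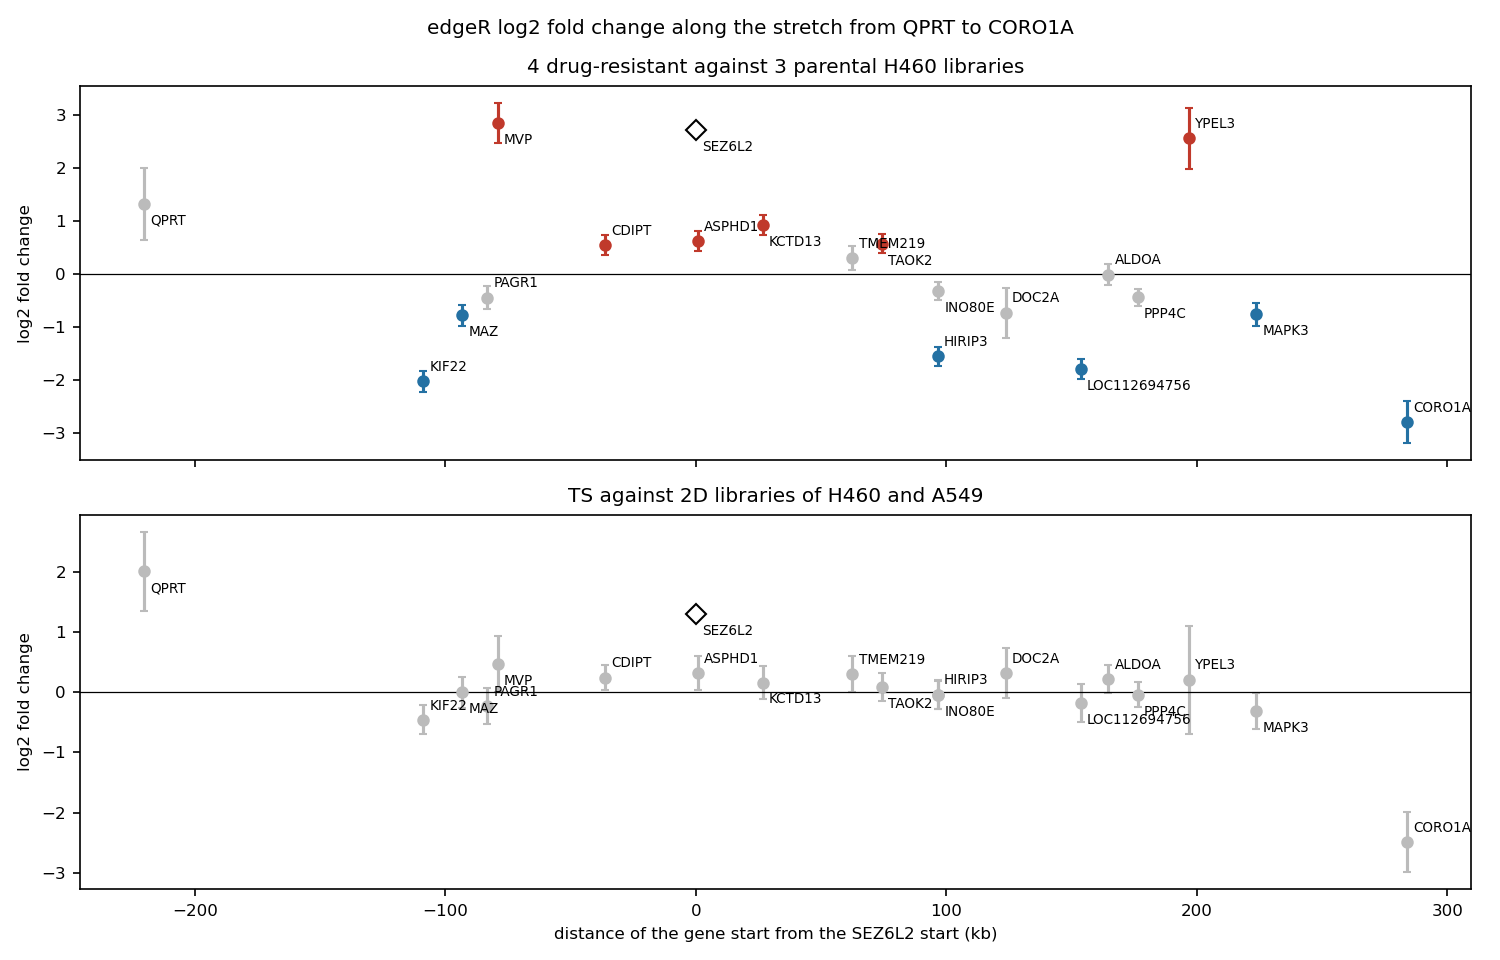
edgeR log2 fold change (vertical axis) of genes of the stretch that reached an FPKM of 1 in 2 or more libraries, against the distance of each gene start from the SEZ6L2 start in kb, for drug-resistant cells (upper panel) and TS cells (lower panel). Bars are 1 SE, red genes were called higher, blue genes lower and grey genes were not called. The open diamond is SEZ6L2, shown with no test. MVP at 2.85 and YPEL3 at 2.56 are near SEZ6L2 at 2.72 in the upper panel, and in the lower panel SEZ6L2 is at 1.30 with no called gene around it.

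Promoter windows of 17 of the 20 expressed genes were held in a RefSeq table (GRCh38, 250 bases before to 50 after each start). SEZ6L2, ASPHD1 and DOC2A had no entry. The letters GGGAGGG, the core of the motif of MAZ, and GGGCGG, the GC box, were searched on both strands, and they can overlap. GGGAGGG was in 8 of the 17 windows and GGGCGG in 10, against 25.4% and 44.6% of 27305 promoters. Of the 5 genes called higher in drug-resistant cells that had a window, 1 held GGGAGGG and 4 held GGGCGG. Of the 6 called lower, 3 and 5 did. A match here is a description of letters, not a binding site. The 3 sequences below show genes that moved in opposite directions and are the longest parts of their windows free of annotated exons (GENCODE 29), 5′ to 3′, with matches in capitals. YPEL3, which rose, is chr16:30096245-30096429 on the minus strand. KIF22 and MAPK3, which fell, are chr16:29790501-29790718 on the plus strand and chr16:30123310-30123470 on the minus strand.
YPEL3: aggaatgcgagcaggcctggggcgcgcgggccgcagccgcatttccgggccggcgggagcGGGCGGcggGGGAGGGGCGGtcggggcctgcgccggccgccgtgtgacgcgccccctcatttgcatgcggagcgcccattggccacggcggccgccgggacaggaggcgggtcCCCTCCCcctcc
KIF22: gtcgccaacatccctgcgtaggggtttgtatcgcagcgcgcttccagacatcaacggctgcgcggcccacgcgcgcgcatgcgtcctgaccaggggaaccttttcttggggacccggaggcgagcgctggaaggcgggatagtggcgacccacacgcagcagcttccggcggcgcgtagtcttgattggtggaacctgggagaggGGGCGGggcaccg
MAPK3: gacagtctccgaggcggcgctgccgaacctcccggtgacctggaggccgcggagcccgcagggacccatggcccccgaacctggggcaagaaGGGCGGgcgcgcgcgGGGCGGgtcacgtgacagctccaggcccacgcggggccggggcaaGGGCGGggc
The YPEL3 part holds GGGAGGG 2 times and GGGCGG 2 times, the KIF22 part holds 1 GGGCGG, and the MAPK3 part holds GGGCGG 3 times and no GGGAGGG. The whole windows hold more. GGGAGGG and GGGCGG occur 3 and 3 times in that of YPEL3, 0 and 2 in KIF22 and 1 and 8 in MAPK3. In the window of MAZ, which also fell and is not shown, they occur 5 and 7 times.

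In TS cells SEZ6L2 was higher in both lines, and no neighbour passed the test. SEZ6L2 was at 7.83 FPKM in H460 TS cells and 18.3 in A549 TS cells, against 7.34 in A549 2D cells and at most 4.54 in parental H460 cells. Of the 9 neighbours, 0 were called, none had an unadjusted p under 0.05 (edgeR), and DESeq2 and both limma fits also called 0. Their log2 fold changes lay between -0.31 (MAPK3) and 0.47 (MVP), with SE between 0.21 and 0.46 and a median of 0.16. Only 35 of 18372 genes were called in this comparison of 2 TS with 4 2D libraries, 0.191% (0.147% higher and 0.0435% lower), so a neighbour that moved by these amounts could not have been told from the spread. Over the stretch, 0 of 26 genes were called by edgeR, 3 had an unadjusted p under 0.05, and DESeq2 called CORO1A lower. The largest log2 fold changes among the expressed genes of the stretch were those of CORO1A, -2.49 ± 0.50 (SE; edgeR adjusted p = 0.147), and QPRT, 2.01 ± 0.66 (SE; edgeR adjusted p = 0.446).

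The neighbours did not share one direction between the lines. ASPHD1 was 8.01 FPKM in H460 TS cells, above the 3 parental libraries, and 5.69 in A549 TS cells, under the 6.82 of A549 2D cells. KCTD13 was 9.59 in H460 TS cells against at most 8.32 in parental cells, and 5.32 in A549 TS cells against 6.56 in A549 2D cells. MVP was 7.28 in H460 TS cells, inside the parental range, and 83.3 in A549 TS cells against 50.9 in A549 2D cells. CDIPT was 29.2 in H460 TS cells, inside the parental range, and 38.0 in A549 TS cells against 28.9. For the difference between the lines in the response to TS culture, 0 of the 9 neighbours were called by edgeR, where 0.436% of 19941 genes were (0.341% higher and 0.0953% lower), none had an unadjusted p under 0.05, and DESeq2 and both limma fits called 0. The spread in that fit came from the 3 parental libraries alone. For SEZ6L2 the response differed by 0.13 on the log2 scale, and by -0.22 without parental replicate 3.

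Set against the 2D control of its line, SEZ6L2 was more than 2-fold higher in each of the 5 cultures, by the difference of log2(FPKM + 1). It was 2.35 higher in CR, 2.85 in PR, 2.20 in DR and 1.08 in H460 TS cells than the mean of the parental libraries, and 1.21 higher in A549 TS than in A549 2D cells. The H460 TS value lay just past the 2-fold line. Against parental replicate 3 alone, SEZ6L2 was not more than 2-fold higher in H460 TS cells. Of the 13439 expressed genes, defined by the same minimum, 7 (0.0521%) were more than 2-fold higher in all 5, namely ECM1, IGFBP3, IL1B, STC1, SEZ6L2, TCIM and CHPF. SEZ6L2 was the only one of them in the stretch. The study chose it for being higher in these same cultures, so its place here repeats that choice and is a description only. MVP and YPEL3 passed 2-fold in the 3 drug comparisons, KCTD13 in PR cells only, with 1.12, and QPRT in A549 TS cells only, with 1.78. KIF22, HIRIP3 and LOC112694756 were more than 2-fold lower in the 3 drug comparisons, and CORO1A in CR cells. CORO1A was near the pseudocount of 1, and its plain FPKM ratio to the control was 0.06 in CR, 0.14 in PR, 0.21 in DR, 0.11 in H460 TS and 0.24 in A549 TS cells. Of all expressed genes, 5.49% were more than 2-fold higher and 6.64% lower in CR cells, 7.43% and 5.54% in PR cells and 5.4% and 5.35% in DR cells. In H460 TS cells these shares were 1.48% and 1.82%, and in A549 TS cells 4.73% and 2.49%. CR, DR and both TS cultures had 1 library each, so these differences have no replicate check. The 4 H460 comparisons also share the parental control.

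**Figure D3:**
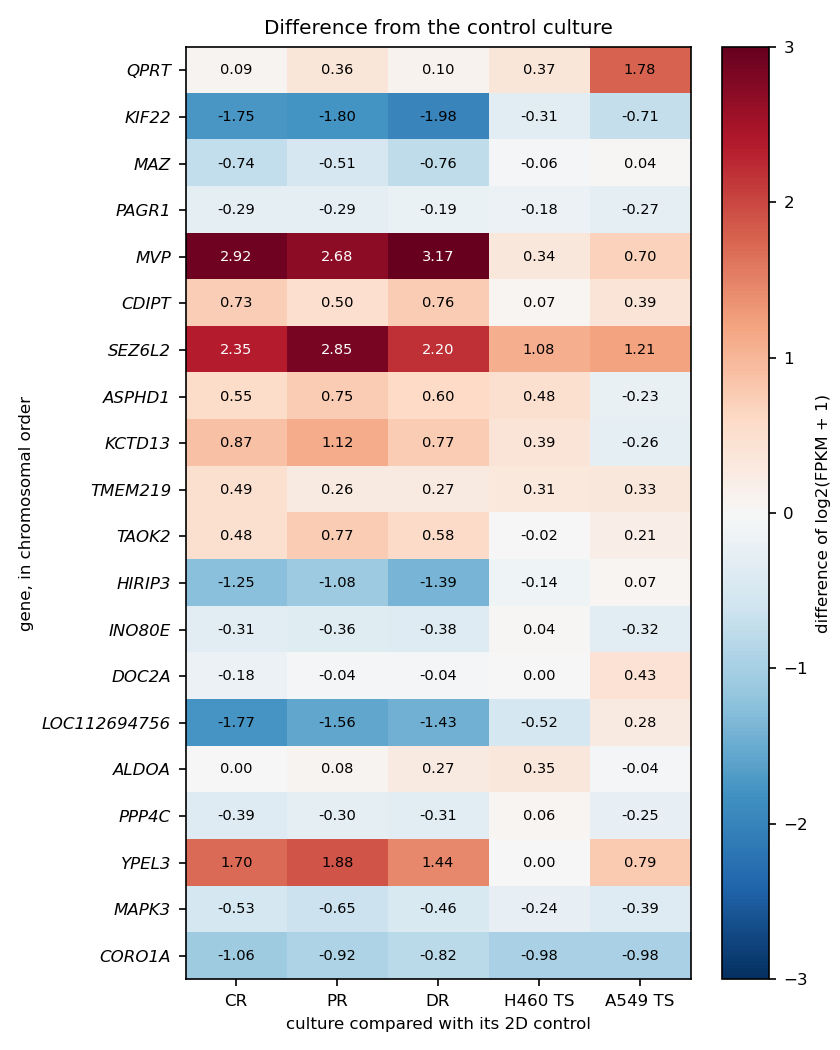
Difference of log2(FPKM + 1) from the control culture for the 20 expressed genes of the stretch (rows, in chromosomal order) in 5 cultures (columns), with red for higher and blue for lower; the control is the mean of 3 parental libraries for H460 and the 2D library for A549. SEZ6L2, which was chosen for being high in these cultures, is the only row above 1 in each column, from 1.08 to 2.85. MVP and YPEL3 exceed 1 only in the CR, PR and DR columns.

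The level of SEZ6L2 relative to its locus is a description of the rise for which it was chosen, and no support for it. In parental libraries SEZ6L2 was 1.83, 2.60 and 1.69 under the median of the 9 neighbours in the same library, on the log2(FPKM + 1) scale. It was 0.71 under it in CR, 0.03 under and 0.06 above it in PR and 0.64 under it in DR cells. In H460 TS cells it was 0.59 under, and in A549 cells 1.84 under in 2D and 1.01 under in TS culture. Against the median of the 19 expressed genes of the stretch, SEZ6L2 was 1.83, 2.30 and 1.16 under in parental cells and 0.53 above in CR, 0.84 and 0.71 above in PR and 0.48 above in DR cells. It was 0.55 under in H460 TS cells, 1.17 under in A549 2D and 0.07 above in A549 TS cells. SEZ6L2 thus came near the median of the 9 neighbours in drug-resistant cells and passed that of the 19 genes.

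Across the 10 libraries, Pearson's r of log2(FPKM + 1) with SEZ6L2 was 0.875 for TAOK2, 0.838 for MVP, 0.803 for CDIPT, 0.712 for KCTD13, 0.675 for ASPHD1 and 0.445 for TMEM219. It was -0.705 for MAPK3, -0.655 for MAZ and -0.626 for PPP4C. Of the other genes of the stretch, YPEL3 had the highest r, 0.892, and KIF22 the lowest, -0.930. These are descriptions, since the libraries share the contrast on which SEZ6L2 was chosen. KCTD13 followed SEZ6L2 most closely among the members in the 8 H460 libraries, with r = 0.987 and rank 6 of 13438 genes. It left that relation in A549 cells, where the TS library had more SEZ6L2 and less KCTD13 than the 2D library. TAOK2 ranked 226, MVP 438 and ASPHD1 1626 over all 10 libraries. The 5 genes most like SEZ6L2 were ABCC10 (r = 0.979), C1S (0.973), UBE2H (0.970), NPAS2 (0.965) and RAB5B (0.963), and 124 genes had r above 0.9. Of these 5, C1S was at 6.06 to 7.04 FPKM in parental cells and 36.5 to 61.0 in drug-resistant cells. By Spearman's rho 0 of the 5 were again among the first 5, and 1 was in the 8 H460 libraries.

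**Figure D4:**
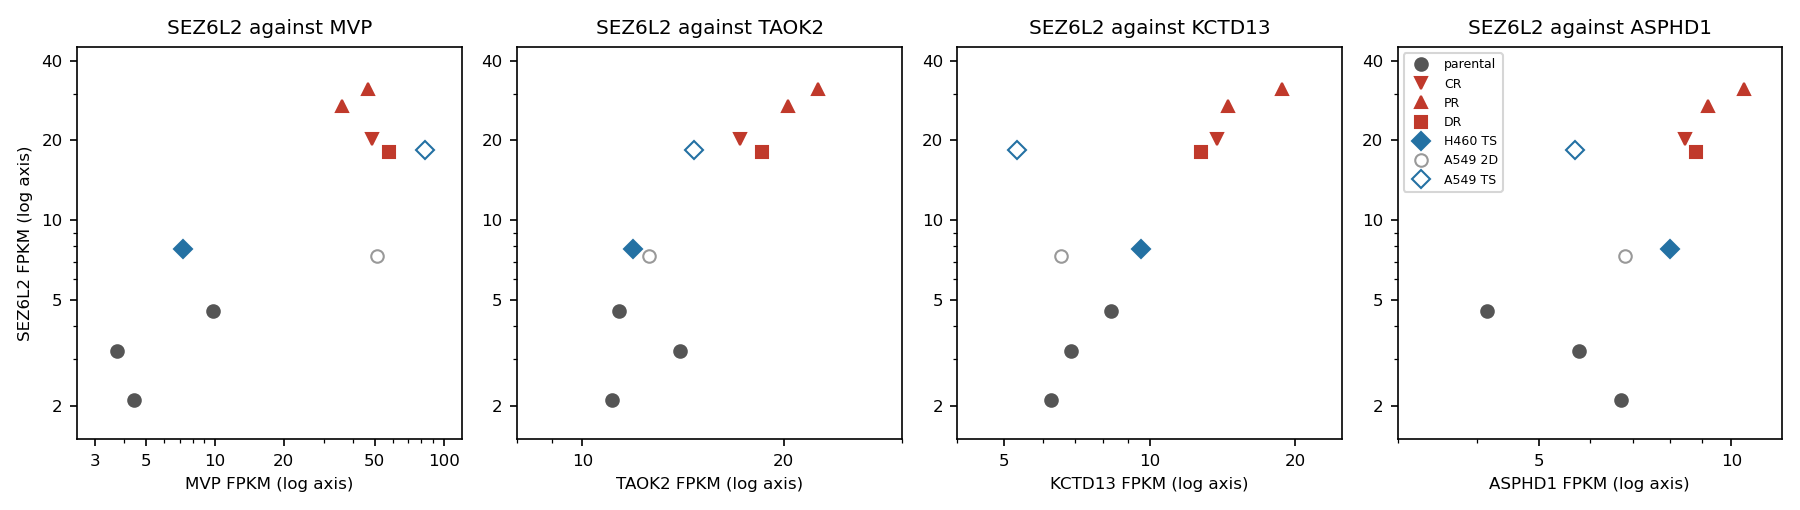
FPKM of SEZ6L2 (vertical log axis) against that of MVP, TAOK2, KCTD13 and ASPHD1 (horizontal log axes), with 1 point per library, open symbols for A549 and diamonds for TS cultures. The H460 points rise together in the KCTD13 panel, where both A549 points lie to the left, and in the MVP panel A549 2D lies far to the right with 50.9 FPKM of MVP and 7.34 of SEZ6L2.

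Between the lines, MVP was higher in A549 than in H460 libraries with a log2 fold change of 3.24 ± 0.45 (SE; edgeR adjusted p = 0.00368), and it was called in each of the 12 alternatives. It was the only neighbour called by edgeR, where 23.9% of 18372 genes were, 14.4% higher and 9.42% lower. The levels of MVP in A549 2D cells (50.9 FPKM) and in drug-resistant H460 cells (36.1 to 57.8) overlapped, although SEZ6L2 was 7.34 in the former and at least 18.2 in the latter. Of the stretch, QPRT, an enzyme of NAD synthesis (5.39 ± 0.68 SE, edgeR adjusted p = 0.00243), DOC2A, a calcium sensor of vesicle release (3.30, edgeR adjusted p = 0.00219), and the low gene TLCD3B (4.38, edgeR adjusted p = 0.0087) were also higher in A549.

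Genes that work with the members, or are their paralogs, were listed as 37 genes, all of which were tested. In drug-resistant cells 2 rose and 7 fell, with a median log2 fold change of -0.18, beside the 18.5% and 15.3% of all genes. The split did not hold under other settings, with 6 higher and 4 lower (median 0.0) under upper-quartile scaling and 5 higher and 4 lower with either limma fit. IGFBP3, RHOA and MYC were called in each of the 14 alternatives. IGFBP3, the ligand of TMEM219, rose by 1.94 (edgeR adjusted p = 0.0155), and TEP1, a vault component with MVP, rose by 0.89 (edgeR adjusted p = 0.0185), a call lost without parental replicate 1 or 2. IGFBP3 was 79.9, 454.8 and 480.3 FPKM in the parental libraries and between 1032 and 1592 in the drug-resistant ones. PARP4, the other vault component listed, was not called. RHOA (-0.72, edgeR adjusted p = 0.0126), a target of the KCTD13 complex, fell while KCTD13 rose. RBX1, a ligase subunit of that complex, was at -0.72 (edgeR adjusted p = 0.0351), a call lost with upper-quartile scaling, with both limma fits and in 6 of the 7 fits that left out 1 library, all but the one without parental replicate 3. MAP2K6, which TAOK2 signals through, fell by 2.01 (edgeR adjusted p = 0.0164) while TAOK2 rose, a call lost without parental replicate 2 or 3. MYC, whose promoter MAZ binds, also fell (-0.95, edgeR adjusted p = 0.00972). These values are RNA levels, and an action of KCTD13, TAOK2 or MAZ on these genes was not tested. PPP2CA, a phosphatase related to PPP4C, was at -0.63 (edgeR adjusted p = 0.0249), a call lost with upper-quartile scaling, with both limma fits and without DR, either PR library, or parental replicate 1 or 2. In TS cells 0 of the 37 were called by edgeR, 1 had an unadjusted p under 0.05, DESeq2 called IGFBP3 higher and limma called 0.

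SEZ6L2 is known from neurons, and 8 neuronal and neuroendocrine markers were examined beside it. Their summed level was 5.26 to 5.79 FPKM in parental cells, 9.63 to 11.18 in drug-resistant cells, 7.64 and 21.2 in the TS libraries and 20.7 in A549 2D cells. SNAP25, a SNARE protein of vesicle release, rose in drug-resistant cells by 2.21 (edgeR adjusted p = 0.000534), from 0.556 to 0.937 FPKM in parental cells to 2.71 to 4.02. NCAM1 was called higher as well, at 0.0102 FPKM or less in parental cells and 0.682 or less in drug-resistant cells. Of the 8 markers, 5 were tested in this comparison, and the other 3 were not called. In TS cells, where SEZ6L2 was higher, the markers did not share a direction. SNAP25 was lower in both TS libraries than in their 2D controls, at 0.161 FPKM in H460 and 3.57 against 13.8 in A549, and SYP was lower in both as well (0.734 in H460, and 0.921 against 2.59 in A549). CHGA was higher in both, at 2.20 FPKM in H460 against 0.238 to 1.51 in parental cells, and 1.64 against 0.493 in A549. NCAM1 was at 1.59 FPKM in H460 TS cells, SYT1 at 11.1 against 1.88 and RBFOX3 at 3.95 against 1.97 in A549. INSM1 did not exceed 0.108 FPKM in any library. CD68, the only leukocyte marker above 1 FPKM, was 15.0 to 16.9 FPKM in parental and 30.7 to 57.9 in drug-resistant cells (log2 fold change 1.37, edgeR adjusted p = 0.00271), while PTPRC was near 0. The part of these genes in the change of SEZ6L2 was not tested.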

How the data were processed

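Poly(A) RNA libraries made with a TruSeq kit were sequenced for 10 cultures. For each gene the authors deposited a whole-number read count that was not normalized. FPKM and TPM values were also made by the authors, normalized for transcript length and library size, and the deposited TPM values were not used. The submitters' processing notes name bcl2fastq 1.8.4, Trimmomatic, HISAT2 2.1.0, StringTie 2.1.3b and GRCh38. How reads shared between genes were counted, and whether strand was used, are not given in the sources used here.

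Counts were compared with edgeR 4.0.16 (TMM, filterByExpr, glmQLFit and glmQLFTest) in R 4.3.3, with Benjamini-Hochberg adjustment over all genes tested and 0.05 as the threshold. Drug-resistant libraries (4) and PR libraries (2) were each set against the 3 parental libraries. TS libraries were set against 2D libraries with the cell line as a covariate, and the A549 against H460 contrast came from the same model. A further model had an interaction of line and culture. SE is the log2 fold change divided by the square root of its F statistic. The spread of the drug-resistant fit includes differences between drugs, and with 1 TS library per line the lines served as replicates. FPKM differences used log2(FPKM + 1), which understates the change of low genes. For differentially expressed genes the study states a 2-fold cut-off and names no test beside it. Which parental library was its control is not stated, so the mean of 3 was used.

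The members, gene lists and comparisons were chosen with earlier results of these data known. Named are the members, the other expressed genes from SPN to CORO1A, the SEZ6 family, 37 partners and paralogs, 5 genes most like SEZ6L2, and the listed markers. The low genes LOC101928595 and TLCD3B, and the genes 2-fold higher in all 5 comparisons, were named after their values were seen. Single results of some listed genes are not reported here. Positions came from RefSeq (GRCh38.p14) by NCBI Gene identifier, which placed 44694 of 46427 genes, and exons from GENCODE 29. Alternatives were DESeq2 1.42.0, limma 3.58.1 (trend) on log2(FPKM + 1) and log2(FPKM + 0.1), RLE and upper-quartile scaling, no filter, the form of library name as a covariate, and each library left out in turn. Each model was first tested on simulated data. Depth was between 59499787 and 89541774 reads per library, and the number of libraries limited precision more than depth did. Figures were drawn with matplotlib 3.10.9.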

Additional observations from a re-analysis of the deposited data

How the results depend on the processing

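Over the alternatives tried, the difference of SEZ6L2 lay between 2.45 and 3.05 (drug-resistant), 2.62 and 3.28 (PR) and 1.13 and 1.51 (TS) on the log2 scale. MVP was called in each alternative of the drug-resistant, PR and line comparisons, and KCTD13 in each of the drug-resistant ones. Uncalled log2 values under 0.05 in size were taken as having no direction. Other signs turned only when 1 library was left out, and none of these values was called. They were TMEM219 in PR cells (-0.10 without PR replicate 2, -0.07 without parental replicate 1, up to 0.31 without PR replicate 1), ASPHD1 (-0.11) and KCTD13 (-0.25) in TS cells without the H460 TS library (up to 0.58 and 0.41 without A549 2D), and, for the line difference in the TS response, SEZ6L2 (-0.22) and MVP (-0.12) without parental replicate 3 (up to 0.41 and 0.76 without another parental library) and MAPK3 (0.13) without parental replicate 1. The cause was not tested.

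Upper-quartile scaling moved the median of all genes in the drug-resistant comparison from 0.06 to 0.23 and the split of calls from 3397 higher and 2823 lower to 4210 and 2032. Over the 19 expressed genes of the stretch other than SEZ6L2, the median was -0.33 for drug-resistant and -0.41 for PR cells, -0.15 and -0.17 with upper-quartile scaling, 0.54 and 0.28 over the 9 neighbours only, and -0.17 and -0.29 with SEZ6L2 included. In PR cells it was -0.31 and -0.29 with limma (pseudocounts 0.1 and 1). Leaving out 1 library gave -0.48 to -0.24 for drug-resistant cells, -0.53 to -0.28 for PR cells and, against 0.16, 0.03 to 0.14 for A549 against H460.

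PR cells had 5455 calls, 2773 and 3026 with limma (0.1 and 1), and 950 to 6661 with 1 library left out. TS cells had 35, 527 with DESeq2, 19 with limma (0.1) and 6 to 322 with 1 library left out. The lines had 4384 and 2359 to 3905 with 1 library left out. The line difference in the TS response had 87 calls, 539 with DESeq2, 0 with edgeR without the filter, 13 and 27 with limma (0.1 and 1) and 116 to 656 with 1 parental library left out, and its stretch median of 0.15 was 0.02 with limma (pseudocount 1). With SEZ6L2 counted, 1 stretch gene in H460 TS and 2 in A549 TS cells were more than 2-fold apart, and 3 and 4 with a pseudocount of 0.1. In H460 TS there were 2 against parental replicate 2 alone and 0 against replicate 3 alone. With SEZ6L2 left out, the main counts were 0 and 1. Of all expressed genes, 1.48% were more than 2-fold higher and 1.82% lower in H460 TS cells, and 4.73% and 2.49% in A549 TS cells.

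PR and parental replicates 1 and 2 share a number and, number by number, a form of library name, and the labels do not state a pairing. The differences between replicates 1 and 2 correlated at 0.155 between the groups over 13439 genes. With 2 pairs this cannot settle whether the libraries were paired. A replicate block on these 4 libraries gave 6775 calls against 6661 without it, a stretch median of -0.52 against -0.53, and MAZ was called (edgeR adjusted p = 0.0387).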
